A study of Mus musculus with 10 samples.

Results

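Transcript levels of cells labelled pachytene spermatocytes were compared with those of cells labelled leptotene/zygotene spermatocytes. This used 4 of the 10 libraries of the series: 2 pachytene and 2 leptotene/zygotene mRNA libraries. All 4 came from C57BL/6 mice aged 70 days. Within each stage, 1 library came from Ago4+/+ mice and 1 from Ago4-/- mice, which lack an Argonaute protein of the family that binds small RNAs. The tables give the libraries of a stage as condition 1 and condition 2 and do not say which condition is which genotype. The 2 values of a stage are therefore given in that order, with no genotype attached, and their difference holds both the genotype and the spread between libraries. The sources used here do not say how the cells were separated or how many animals were pooled. The title of the series names entry into meiosis and sex chromosome silencing.

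The first meiotic prophase runs from leptotene through zygotene to pachytene. At leptotene, the enzyme SPO11 breaks the DNA, and at zygotene the homologous chromosomes begin to pair along the synaptonemal complex. At pachytene, pairing is complete, the X and Y chromosomes are silenced in a body of their own, and a first wave of genes for later sperm development is transcribed. Round and elongating spermatids follow the meiotic divisions. They make the transition proteins and protamines that replace histones in the sperm nucleus, and the parts of the acrosome and the tail.

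Levels are in FPKM, fragments per kilobase of transcript, scaled for mapped fragments, as the authors deposited them, so levels of different genes are per length. A gene counted as measured where any of the 4 libraries had at least 1 FPKM, which 17384 of 36806 listed genes did. The log2 ratio is that of the stage means after 0.1 FPKM was added to each. A gene is called higher or lower at pachytene where the ratio was at least 2-fold (a log2 ratio of 1 or more in size) and both pachytene values lay on the same side of both leptotene/zygotene values. The 2 stages stand in tables that were normalized separately, so no p-value is given between them, and the range over the 4 pairs of 1 pachytene and 1 leptotene/zygotene library is given as the error of a ratio. Folds are ratios of the stage means. Where 2 pairs of values are joined by "against", the 2 pachytene libraries come first and the 2 libraries labelled leptotene/zygotene second. The values are not counts, so the depth is unknown.

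The libraries labelled leptotene/zygotene went against their label, which bears on every ratio reported here. Tnp1 and Prm2, which are transcribed in spermatids, were their 2 most abundant named genes. The pachytene libraries held these spermatid transcripts as well. Among named genes there, Tnp1 ranked 13 and 9 and Prm2 ranked 14 and 7. Values given as at pachytene are therefore those of libraries with that label, not of pachytene cells alone. Prm2, a protamine, was at 1989 and 2950.5 FPKM in the pachytene libraries and at 14183 and 18799.8 FPKM in the libraries labelled leptotene/zygotene. Tnp1, a transition protein, was at 2258 and 2712 against 15006 and 17166 FPKM. Prm1, Prm2, Tnp1 and Tnp2 together made up 1.20 and 1.57% of the summed FPKM of named genes at pachytene and 7.36 and 8.54% under the leptotene/zygotene label. Both libraries under that label stood above both pachytene libraries for each of these 4 genes.

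Stra8, Prdm9, Dmc1 and Spo11, which act at entry into meiosis or early in prophase, were not called higher under the leptotene/zygotene label. Rad21l, a cohesin subunit of prophase, was called higher there at low levels, at 0.566 and 0.572 against 1.64 and 1.51 FPKM. Stra8, which is needed to enter meiosis, was at 4.08 and 6.05 FPKM at pachytene and at 8.36 and 6.43 FPKM under the leptotene/zygotene label, and was not called. Prdm9, which marks the sites of meiotic DNA breaks, was at 3.18 and 4.83 against 4.90 and 4.90 FPKM. Dmc1, the meiotic recombinase, was at 1.75 and 4.02 against 3.02 and 3.73 FPKM. These 3 genes were low in all 4 libraries. The stages overlapped for Dmc1, and differed by less than 2-fold for Stra8 and Prdm9. Spo11 itself (chromosome 2, 172803201 to 172819077 in the table) was at 57.4 and 61.4 FPKM at pachytene and at 11.01 and 11.97 FPKM under the leptotene/zygotene label. That is 5.17-fold higher at pachytene, with log2 ratios of 2.25 to 2.47 over the library pairs. Whether Spo11 RNA is highest at the stage where its protein acts was not tested. The cause of the high protamine and transition protein levels under the leptotene/zygotene label was not tested. Both libraries under the label show these levels, so they cannot be removed by leaving out one library.

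**Figure D1:**
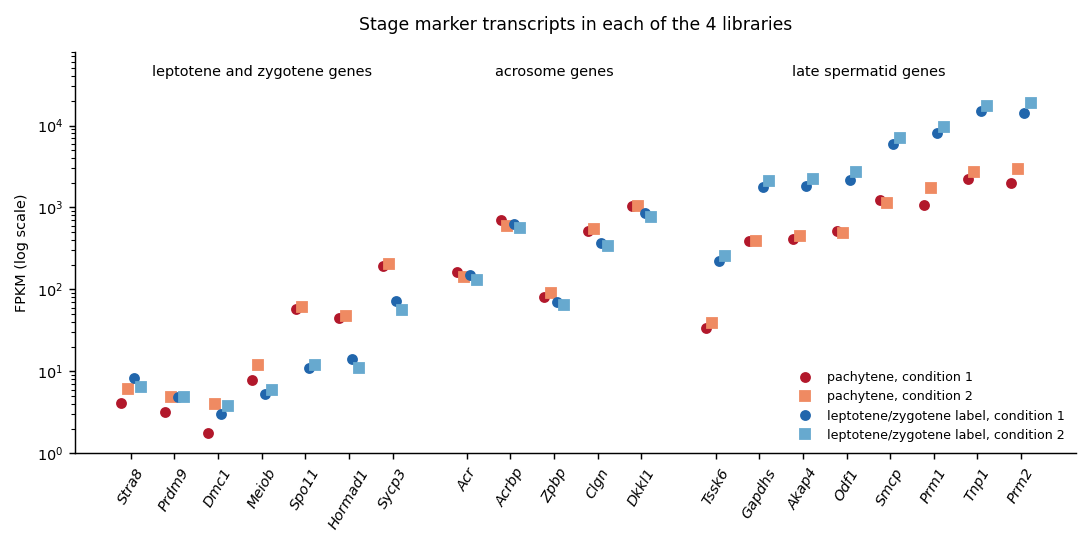
FPKM on a log scale of 20 stage marker genes in each of the 4 libraries, with circles for condition 1 and squares for condition 2 of each table. The genes are a selection and do not stand for their lists. The spermatid genes shown (headed late spermatid genes) are higher in both libraries labelled leptotene/zygotene, with Prm2 at 14183 and 18799.8 FPKM there and at 1989 and 2950.5 FPKM at pachytene. Tssk4, Tssk5 and Odf4, not shown, stayed under 2-fold. The acrosome genes shown stay under 2-fold, while their full list has 13 genes above 0 and 13 below, with 1 called higher and 3 lower. Spo11, Hormad1 and Sycp3 are higher at pachytene, while Syce2, not shown, is lower.

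Between the stages, 2955 genes were called higher at pachytene (17.0% of those measured) and 1889 lower (10.9%). The 2 libraries of a stage differed by a median of 0.24 on the absolute log2 scale, both at pachytene and under the leptotene/zygotene label, over the 13121 genes at 1 FPKM or more in all 4. The stage means differed by a median of 0.62. A difference of at least 2-fold was seen for 3463 of these genes between the stages, for 628 between the 2 pachytene libraries and for 720 between the 2 others. Which direction holds more genes depends on the scaling. The median log2 ratio of all measured genes was 0.28, so the called genes split 61.0% to the higher side. Scaled by the median of ratios over genes present in all 4 libraries, the median moved to -0.06, and 1566 genes were called higher and 2895 lower (35.1% higher). With each library scaled to the same summed FPKM, the median moved to 0.62 and 80.9% of calls were higher. The shift of -0.34 or 0.35 applies to all genes alike, so a list's median is to be set against 0.28. Its share of calls is to be set against 17.0% higher and 10.9% lower.

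**Figure D2:**
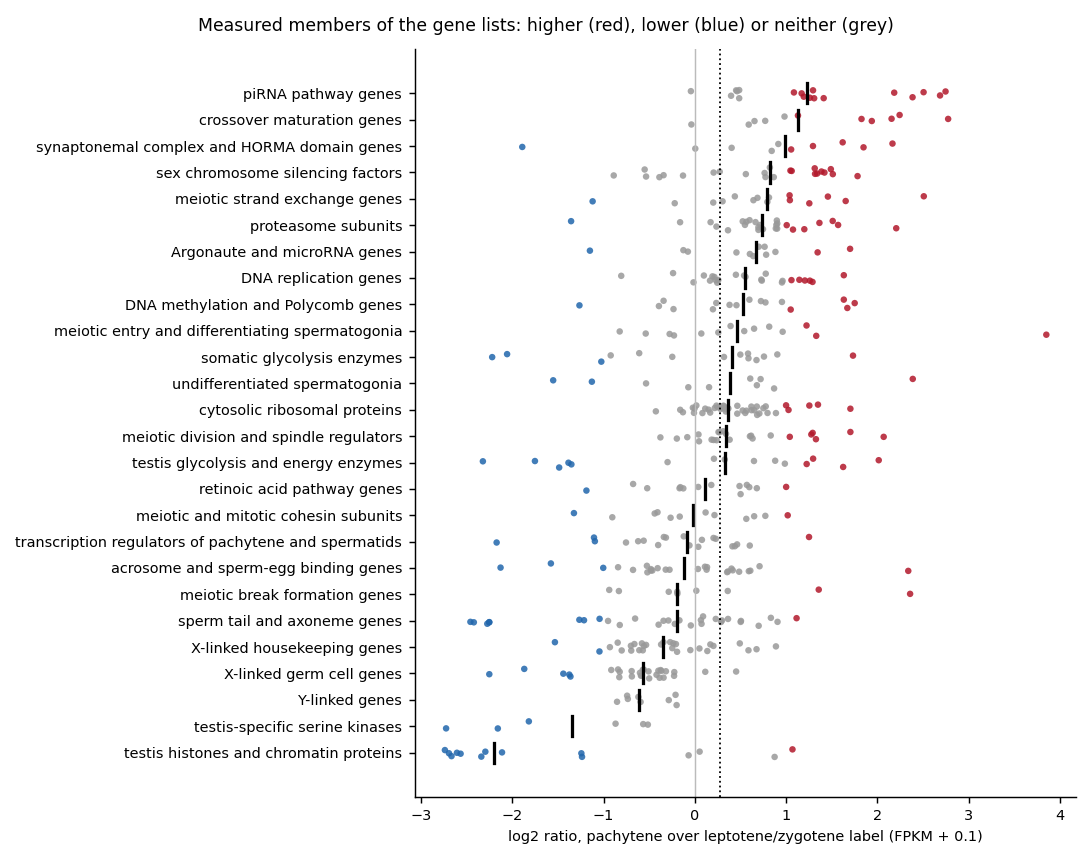
Log2 ratio of each measured member of 26 gene lists (1 dot per gene; red called higher at pachytene, blue called lower, grey neither), with the list median as a black bar and the median of all measured genes, 0.28, as a dotted line. The piRNA list lies highest (median 1.23) and, of those shown, the testis histone and chromatin protein list lowest (median -2.20); the dot farthest to the right is Upp1, listed at 0 in both libraries labelled leptotene/zygotene.

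Genes of the chromosome axis and synaptonemal complex lay above 0 in 9 of 10 cases. Of the 10 listed genes, all measured, 5 were called higher and 1 lower, against 17.0% and 10.9% of all measured genes, with a median log2 ratio of 0.99. Sycp3, an axis protein of the complex, was at 191 and 205 FPKM at pachytene and at 72.0 and 56.6 FPKM under the leptotene/zygotene label, so the stages did not overlap (log2 ratio 1.62, 1.41 to 1.85 over the pairs). Hormad1, which marks unpaired axes, was at 44.4 and 47.4 against 14.3 and 11.1 FPKM. Tex12, of the central element, was at 21.8 and 39.4 against 6.61 and 6.87 FPKM, and Hormad2 was at 18.2 and 17.4 against 7.08 and 7.30 FPKM. Sycp2, the partner of Sycp3, was called as well, but its pachytene values of 164 and 74.5 FPKM lay far apart, against 58.7 and 56.0 FPKM. Syce2, another protein of the central element, went the other way at 109 and 123 against 385 and 475 FPKM (3.71-fold lower at pachytene). Under scaling by the median of ratios, 3 of the 10 stayed higher and 1 lower.

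Recombination genes were taken by step. Among 9 measured genes of break formation (Mei4 was under the filter), 2 were called higher and none lower (22.2 and 0%, against 17.0 and 10.9% of all measured genes). Of the 9, 4 lay above 0 and 5 below. The median of -0.19 lay below that of all genes (above 0 with equal FPKM sums). Under scaling by the median of ratios, 2 were higher and 2 lower. The 2 higher genes of the main count were Spo11 and Ccdc36 (now Iho1), which is needed for breaks on unpaired axes. Ccdc36 was at 10.5 and 13.4 FPKM at pachytene and 5.03 and 4.18 FPKM under the leptotene/zygotene label. For strand exchange, 6 of 15 genes were higher and 1 was lower (40 and 6.67%, median 0.80), and 3 and 1 under scaling by the median of ratios. Rpa2, a subunit of the single-strand binding complex, was at 12.5 and 17.9 against 5.74 and 5.21 FPKM, and Mcmdc2, which is needed for repair on the homologue, at 5.88 and 5.84 against 1.87 and 1.71 FPKM. Hsf2bp, which brings BRCA2 to meiotic breaks, was at 93.8 and 133 against 51.3 and 58.5 FPKM, and Msh4, which stabilises joined molecules, at 7.50 and 6.84 against 3.86 and 3.02 FPKM. Psmc3ip (HOP2), a cofactor of Dmc1, was the most abundant of the list and stayed under 2-fold at 182 and 181 against 117 and 108 FPKM. Tex15, which is needed to repair meiotic breaks, was the 1 lower gene, at 35.3 and 12.1 against 49.7 and 53.5 FPKM.

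Crossover genes formed the meiotic list with the highest median. Of 11 measured genes, 6 were called higher and none lower (54.5 and 0%, against 17.0 and 10.9% of all measured genes), with a median log2 ratio of 1.13. Mlh3, a nuclease subunit found at crossovers, was at 16.9 and 20.1 FPKM at pachytene and at 5.05 and 5.23 FPKM under the leptotene/zygotene label. Cdk2, the kinase at crossovers and telomeres, was at 40.9 and 49.5 against 9.11 and 9.81 FPKM. Ccnb1ip1 (HEI10), a ubiquitin ligase of crossover choice, was low but separate at 6.58 and 8.46 against 1.12 and 0.901 FPKM. Its partner Rnf212 was at 13.6 and 8.96 FPKM at pachytene and listed at 0 and 4.91 under the leptotene/zygotene label. Hfm1, a helicase of crossover formation, was at 23.1 and 26.1 against 6.69 and 6.00 FPKM, and Cntd1, a cyclin-like protein of crossover maturation, at 116 and 98.8 against 56.3 and 41.9 FPKM. With scaling by the median of ratios 5 of the 11 stayed higher.

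The cohesins, rings that hold sister chromatids together, showed no common direction. Of 12 measured subunits, 1 was called higher and 1 lower (8.33% each, against 17.0 and 10.9% of all measured genes). The median was -0.02 (above 0 with equal FPKM sums). Stag3, the meiotic subunit, was abundant in all 4 libraries, at 414 and 406 against 265 and 257 FPKM. Rec8, the meiotic kleisin, was at 58.1 and 31.0 against 67.7 and 53.2 FPKM and overlapped. The other kleisin of prophase, Rad21l, was at 0.566 and 0.572 against 1.64 and 1.51 FPKM, a difference at low levels.

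Genes of spermatogonia and of entry into meiosis showed no large shift of the list. Among 14 measured genes of meiotic entry and differentiating spermatogonia, 3 were called higher at pachytene and none lower (21.4 and 0%, against 17.0 and 10.9% of all measured genes; median 0.47), but 5 were higher without leptotene/zygotene condition 2. Meioc and Ythdc2, partners that bind RNA to keep the meiotic program going, were at 81.7 and 78.4 against 35.9 and 32.5 FPKM and at 8.98 and 8.58 against 3.91 and 2.95 FPKM. The uridine phosphorylase Upp1 was at 0.924 and 1.77 FPKM and listed at 0 in both libraries under the leptotene/zygotene label. Kit, the receptor of differentiating spermatogonia, was at 1.801 and 4.03 against 4.10 and 2.76 FPKM and overlapped. Of 18 genes of undifferentiated spermatogonia 8 were under the filter, and of the 10 measured 1 was higher and 2 were lower (10 and 20%). Id4, a transcription inhibitor of stem cells of this lineage, was the higher one, at 20.8 and 26.6 against 4.40 and 4.49 FPKM. Lhx1 and Pou5f1 were lower at levels near 1 FPKM, with Lhx1 at 0.302 and 0.168 against 1.15 and 0.613 FPKM.

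DNA replication and division genes had higher calls and no lower ones. Of 24 measured replication genes 6 were called higher and none lower (25 and 0%, against 17.0 and 10.9% of all measured genes; median 0.55), but only 1 was higher and 1 lower under scaling by the median of ratios. Dnmt1, the maintenance DNA methyltransferase, was at 16.6 and 20.7 FPKM at pachytene and at 6.41 and 5.48 FPKM under the leptotene/zygotene label. Gins2, a subunit of the replicative helicase, was at 31.5 and 37.9 against 11.8 and 16.5 FPKM. The helicase subunits Mcm2 and Mcm4, markers of S phase, were at 2.22 and 2.62 against 2.49 and 1.804 FPKM and at 2.71 and 3.17 against 2.88 and 2.23 FPKM, and were not called. Among 23 division regulators 6 were higher and none was lower (26.1 and 0%; median 0.34, close to the 0.28 of all measured genes), and 3 stayed higher under that scaling. Cdk1, the kinase that drives the divisions, was at 75.3 and 97.6 against 24.1 and 28.8 FPKM. Mad2l1, of the spindle checkpoint, was at 9.88 and 11.9 against 1.55 and 3.49 FPKM, and Bub1b at 93.4 and 94.2 against 33.5 and 43.0 FPKM. The cyclins of the divisions differed little. Ccnb1 was at 38.6 and 30.9 against 26.6 and 33.6 FPKM, and Ccna1, the cyclin specific to male meiosis, at 163 and 166 against 129 and 143 FPKM.

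The piRNA pathway was the list farthest to the pachytene side. PIWI proteins bind piRNAs, small RNAs that silence transposons, and Tudor domain proteins gather them in cytoplasmic granules. Of 18 measured genes 12 were called higher and none lower, against 17.0% and 10.9% of all measured genes, with a median log2 ratio of 1.23. With scaling by the median of ratios 7 stayed higher and the median was 0.91. Piwil1 (MIWI, chromosome 5, 129242121 to 129261349 in the table), the PIWI protein that first appears at pachytene, was at 202 and 215 FPKM at pachytene and at 37.2 and 24.8 FPKM under the leptotene/zygotene label. This was the largest difference on the higher side among named genes at 100 FPKM or more, 6.74-fold (2.44 to 3.12 on the log2 scale over the pairs). Piwil2 (MILI), which acts from before meiosis, was at 58.3 and 67.4 against 13.97 and 13.5 FPKM.

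Tudor genes differed widely among themselves, with log2 ratios from 0.40 for Rnf17 to 2.69 for Tdrd5. Tdrd5 was at 68.4 and 82.1 FPKM at pachytene and at 11.9 and 11.3 FPKM under the leptotene/zygotene label, and Tdrd1 was at 86.9 and 94.1 against 18.5 and 13.1 FPKM. Pld6, the mitochondrial nuclease of piRNA processing, was at 57.6 and 62.1 against 12.8 and 9.92 FPKM. All 3 had their lowest pachytene value above 4 times the highest of the others. In contrast, Tdrd6 was at 618 and 548 against 443 and 409 FPKM, and Tdrd7 at 298 and 377 against 282 and 199 FPKM, both under 2-fold. Mael, Ddx4 (VASA) and Gtsf1 were also abundant and close, with Ddx4 at 364 and 397 against 272 and 271 FPKM and Gtsf1 overlapping at 440.1 and 400.4 against 468 and 397 FPKM. The other 8 higher genes had log2 ratios from 1.09 to 2.19. Among them were Mov10l1, the helicase that feeds precursors into the pathway, at 58.9 and 53.8 against 25.6 and 21.3 FPKM, and Henmt1, which methylates the ends of piRNAs, at 29.7 and 36.8 against 17.0 and 14.2 FPKM. Tdrd9 was at 47.9 and 49.4 against 22.7 and 19.7 FPKM, Tdrd12 at 51.7 and 56.7 against 22.6 and 21.4 FPKM and Tdrkh at 21.1 and 24.4 against 8.31 and 8.65 FPKM. Piwil4, which acts in the fetal testis, was under the filter. Without the leptotene/zygotene library of condition 2, 9 of the 18 were higher, and without any other single library 11 or 12.

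Several promoters of these meiotic and piRNA genes share a letter pattern, which is shown for 2 genes of each list because 7 of 14 piRNA genes and 6 of 10 synaptonemal complex genes with a promoter in the table hold it. The sequences are from RefSeq (GRCm38.p6), 250 bases before to 50 after a start site, 5′ to 3′ on the gene's strand, with capitals for the E-box CACGTG, which is bound by proteins of the MYC and MAX family and by other basic helix-loop-helix proteins. The windows are chr5:128735996-128736295 (+ strand) for Piwil1, chr19:56825959-56826258 (+ strand) for Tdrd1, chr10:88459337-88459636 (+ strand) for Sycp3 and chr3:95559427-95559726 (+ strand) for Hormad1.
Piwil1: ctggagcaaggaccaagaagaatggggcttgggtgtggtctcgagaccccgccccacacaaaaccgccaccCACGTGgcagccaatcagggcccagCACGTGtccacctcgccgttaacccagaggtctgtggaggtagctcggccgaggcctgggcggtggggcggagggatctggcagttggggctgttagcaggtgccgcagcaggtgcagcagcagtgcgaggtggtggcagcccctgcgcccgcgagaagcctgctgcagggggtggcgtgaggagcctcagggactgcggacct
Tdrd1: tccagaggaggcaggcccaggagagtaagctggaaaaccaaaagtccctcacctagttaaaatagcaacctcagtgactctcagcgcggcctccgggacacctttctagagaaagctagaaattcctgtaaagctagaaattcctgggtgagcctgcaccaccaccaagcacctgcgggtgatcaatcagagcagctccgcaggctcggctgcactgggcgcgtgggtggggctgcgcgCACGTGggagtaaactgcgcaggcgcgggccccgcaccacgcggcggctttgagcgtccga
Sycp3: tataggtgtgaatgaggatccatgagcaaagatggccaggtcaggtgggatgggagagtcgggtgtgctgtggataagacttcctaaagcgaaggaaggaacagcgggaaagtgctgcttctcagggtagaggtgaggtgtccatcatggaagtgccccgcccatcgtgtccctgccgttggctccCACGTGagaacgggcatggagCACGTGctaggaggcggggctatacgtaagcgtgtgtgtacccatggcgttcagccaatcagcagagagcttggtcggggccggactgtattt
Hormad1: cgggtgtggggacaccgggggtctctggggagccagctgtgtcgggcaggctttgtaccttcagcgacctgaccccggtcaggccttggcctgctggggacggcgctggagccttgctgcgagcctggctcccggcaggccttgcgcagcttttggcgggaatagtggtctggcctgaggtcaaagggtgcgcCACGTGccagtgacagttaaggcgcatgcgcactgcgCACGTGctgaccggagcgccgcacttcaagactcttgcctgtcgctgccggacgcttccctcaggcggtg
In Piwil1 the 2 matches begin 179 and 154 bases before the start site, in Sycp3 64 and 43 bases before and in Hormad1 57 and 20 bases before. Tdrd1 has 1 match in this window, 11 bases before the start site, and the window is 1 of 3 listed for the gene. The Hormad1 window is 1 of 2.

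These shares compare with 1232 of 11258 measured genes matched by symbol (10.9%) that hold an E-box in a window of this length. None of 9 testis histone and chromatin protein genes and 2 of 26 tail genes had one. The E-box was present in 10.9% of all genes called higher, the same share as of all genes, and in 7.74% of those called lower. None of 8 testis histone genes and none of 6 tail genes called lower had one. Within the piRNA list it was in 5 of 10 genes called higher and in 2 of 4 not called, and among the complex genes it was present in promoters of Sycp1, which was not called, and of Syce2, which was lower. Of 6 other motifs searched on both strands, the E2F site GGCGGGAA was in 5.27% of genes called higher and 2.86% of genes called lower, against 4.41% of all. The MYB site AACNGTT (4.65 and 5.38%, against 4.43%), the cAMP response element TGACGTCA (3.46 and 3.95%, against 3.53%), its core TGACGT (12.9 and 11.4%, against 12.5%) and the CCAAT box (44.3 and 41.7%, against 42.8%) lay closer together. The RFX core GTTGCCA was in 4.03% of genes called higher and 7.06% of those called lower, against 5.65% of all. Every full cAMP response element also counts as a core. No binding was measured in these samples, and a match of letters is a description only.

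Among regulators of transcription in pachytene cells and spermatids, 1 of 20 was called higher and 3 were lower (median -0.09, above 0 with equal FPKM sums). These shares were 5 and 15%, against 17.0 and 10.9% of all measured genes. Mybl1 (A-MYB), the regulator of many pachytene genes, was the higher one, at 56.0 and 50.4 FPKM at pachytene and 23.7 and 20.8 FPKM under the leptotene/zygotene label. Under scaling by the median of ratios it stayed on the higher side but under 2-fold. The lower count was 1 without pachytene condition 2 or without leptotene/zygotene condition 1. The spermatid genes Spz1 and Fhl5 (ACT), the coactivator of CREM, were lower. Spz1 was at 463 and 486 against 1905 and 2376 FPKM and Fhl5 at 100.01 and 67.9 against 212 and 147 FPKM. Rfx3, a ciliary regulator, was at 18.6 and 13.2 against 37.98 and 30.8 FPKM. Crem and Rfx2, regulators of round spermatid genes, hardly differed. Crem was at 369 and 372 against 382 and 389 FPKM, and Rfx2 at 159.9 and 136 against 145 and 135 FPKM.

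Factors that silence the sex chromosomes, or mark them at pachytene, had higher calls and no lower ones. Of 23 genes 10 were called higher, against 17.0% of all measured genes (median 0.82), and 7 were higher and 1 lower when scaled by the median of ratios. Atr, the kinase that phosphorylates H2AX on unpaired chromosomes, was at 119 and 108 FPKM at pachytene and at 42.7 and 36.6 FPKM under the leptotene/zygotene label. Its activator Topbp1 was at 20.1 and 23.3 against 6.53 and 5.92 FPKM. Hus1b and Rad9b, germ cell forms of the clamp that brings Topbp1 to DNA, were at 1.76 and 2.62 against 0.746 and 0.684 FPKM and at 23.9 and 28.6 against 10.4 and 9.52 FPKM. H2afx, the histone that is phosphorylated, was at 18.6 and 24.3 against 10.1 and 6.72 FPKM, and Mdc1, which spreads the mark, at 76.9 and 84.7 against 29.7 and 35.1 FPKM. Trim28, a corepressor, was the most abundant of the list and under 2-fold at 526 and 578 against 307 and 299 FPKM, while its partner Setdb1, a histone methyltransferase, was higher at 26.8 and 28.3 against 11.7 and 14.5 FPKM. Brca1, which acts on the axes before Atr, was not called, at 3.98 and 2.09 against 6.81 and 4.60 FPKM.

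Argonaute genes, to which Ago4 belongs, were low. Of 12 Argonaute and microRNA genes 2 were called higher and 1 lower (median 0.67). These shares, 16.7 and 8.33%, are near the 17.0 and 10.9% of all measured genes. Ago4 (chromosome 4, 126166785 to 126210716 in the table) was at 4.37 and 12.1 FPKM at pachytene and at 1.67 and 3.26 FPKM under the leptotene/zygotene label. Its 2 values differed in each stage by more than those of any other Argonaute gene of the list, so the ratio over the pairs ran from 0.41 to 2.79. One library of each pair lacks the gene by its label, and which one it is cannot be told apart here. Ago2 was at 2.42 and 1.92 against 0.913 and 0.671 FPKM, while Ago1 and Ago3 were under 2-fold, with Ago1 at 1.39 and 1.02 against 0.985 and 1.57 FPKM and Ago3 at 3.16 and 3.18 against 3.33 and 3.60 FPKM. Tarbp2, a partner of Dicer, was the most abundant of the list at 285 and 313 against 154 and 169.7 FPKM. Tnrc6b, a silencing partner of Argonautes, was lower at 3.51 and 3.23 against 7.07 and 8.12 FPKM.

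The proteins that package sperm DNA had the lowest median of the germ cell lists. Of 14 testis histone and chromatin protein genes, 10 were called lower at pachytene and 1 higher, against 10.9% and 17.0% of all measured genes, with a median log2 ratio of -2.20. Prm2 (chromosome 16, 10791476 to 10792198 in the table) was 6.68-fold and Tnp1 (chromosome 1, 73061657 to 73062473) 6.47-fold higher under the leptotene/zygotene label, from the levels given above. Prm1 was at 1074 and 1712 FPKM at pachytene and at 8179 and 9509.6 FPKM under that label, and Tnp2 at 1241 and 1392 against 7883 and 8161 FPKM. The 4 had log2 ratios between -2.74 and -2.61. H1fnt and Hils1, linker histones of spermatids, were at 143 and 137 against 659.8 and 715 FPKM and at 315 and 211 against 709 and 530.1 FPKM. The histone variants made before meiosis or at pachytene did not follow. The linker histone Hist1h1t was at 4.84 and 2.21 against 2.33 and 1.42 FPKM and overlapped, and Hist1h2ba (TH2B) was at 9.70 and 3.51 against 7.55 and 6.29 FPKM. Hist1h2aa (TH2A) was the 1 higher gene, at 3.07 and 2.92 against 0.969 and 1.78 FPKM. Transcripts of many histone genes have no poly(A) tail, and these levels cannot be compared with those of the protamines.

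Tail genes had more lower and fewer higher calls than genes in general. Of 30 measured genes 8 were called lower at pachytene and 1 higher (26.7 and 3.33%, against 10.9 and 17.0% of all measured genes; median -0.19, above 0 with equal FPKM sums). Most of the lower genes encode parts of the outer dense fibres, the fibrous sheath or the mitochondrial sheath, structures built late. Smcp, of the mitochondrial sheath, was at 1236 and 1121 FPKM at pachytene and at 5899.9 and 7065 FPKM under the leptotene/zygotene label. Odf1, of the outer dense fibres, was at 515 and 485 against 2136 and 2706 FPKM, and Akap4, the X-linked scaffold of the fibrous sheath, at 409 and 450.5 against 1850.0 and 2246 FPKM. Oaz3, the antizyme of spermatids, was at 599.6 and 616 against 2894 and 3618 FPKM. The dynein and tektin genes of the axoneme, which is built earlier, lay within 2-fold. Dnah8 was at 277 and 273 against 144 and 149.8 FPKM and Tekt1 at 365 and 378 against 326 and 308 FPKM. Rsph1, of the radial spokes, was the 1 higher gene at 1132 and 1219 against 576 and 509 FPKM.

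Acrosome genes, made by round spermatids and in part already at pachytene, had fewer higher calls than genes in general and a similar share of lower ones. Of 26 genes 1 was called higher and 3 were lower (3.85 and 11.5%, against 17.0 and 10.9% of all measured genes), and 5 were lower without pachytene condition 1. The list median of -0.12 (above 0 with equal FPKM sums) lay below the 0.28 of all measured genes. Acr, the acrosomal protease, was at 161 and 141 against 148 and 131 FPKM, and Zpbp, which binds the egg coat, at 80.1 and 90.1 against 69.3 and 63.8 FPKM. Ace, the germ cell form of which is made in spermatids, was lower at 98.1 and 87.0 against 374 and 436 FPKM, and Calr3, a chaperone, at 22.5 and 11.6 against 61.0 and 41.2 FPKM. Tex101, a surface protein of spermatocytes and spermatids, stood apart from the list at 163 and 192 FPKM at pachytene and 35.0 and 34.9 FPKM under the leptotene/zygotene label (5.07-fold higher).

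The testis-specific serine kinases of spermatids lay below 0 without exception, with 3 of 6 called lower (50%, against 10.9% of all measured genes, median -1.34). Tssk6 was at 33.9 and 38.6 against 222 and 258 FPKM, Tssk3 at 58.2 and 54.6 against 219.7 and 285 FPKM and Tssk2 at 179 and 138 against 547 and 571 FPKM. Tssk1, Tssk4 and Tssk5 stayed under 2-fold.

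On the lower side, few named genes of high level were far past 6-fold. Of 1507 named genes at a mean of 100 FPKM or more in either stage, 277 were called lower and 113 higher. Of all 17384 measured genes, 1889 were lower (10.9%) and 2955 higher (17.0%), so the larger side there was the other one. As many as 100 of the 1507 were at least 4-fold lower at pachytene, but only 20 were at least 6-fold lower, 1 was over 7-fold and none reached 8-fold. At 4-fold, 500 of all measured genes were lower and 439 higher. The 16 named genes between log2 ratios of -2.8 and -2.6 include Prm2, Tssk6, Tnp1, Prm1 and Tnp2, whose levels under the leptotene/zygotene label run from 222 and 258 FPKM for Tssk6 to 14183 and 18799.8 FPKM for Prm2. The other members there include Paqr5 at 35.2 and 49.1 against 241 and 311 FPKM, Car2, a carbonic anhydrase, at 18.5 and 30.2 against 132 and 182 FPKM and Phospho1, a phosphatase, at 38.02 and 39.9 against 223 and 276 FPKM. Arl9, a small GTPase of the ARF family, was the gene past 7-fold, at 40.1 and 34.7 against 256 and 313 FPKM. Over all 2145 genes at this level, which include predicted, clone and microRNA names, 6 were more than 8-fold lower by the log2 ratio. On the higher side 10 named genes were at least 4-fold apart. After Piwil1 came Calm2, a calmodulin gene with near-identical protein products elsewhere in the genome, at 654 and 828 against 143 and 96.8 FPKM, and the chromatin factor Mllt10 at 273 and 333 against 60.01 and 46.7 FPKM.

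**Figure D3:**
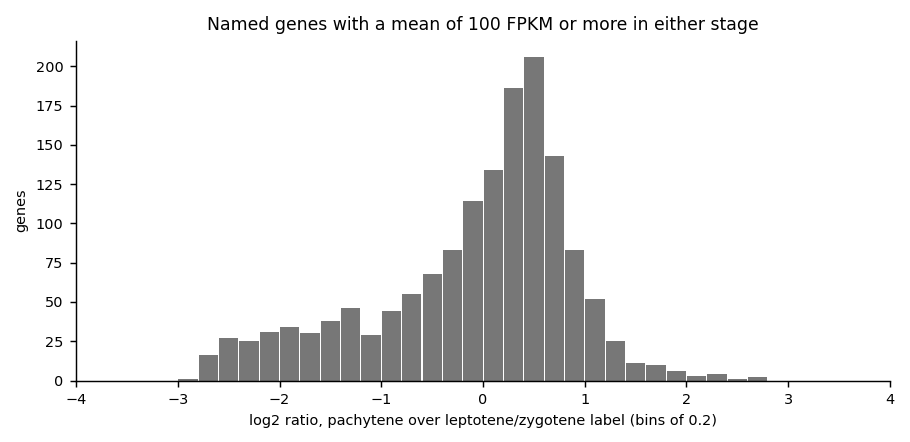
Number of named genes (1507 in all, at a mean of 100 FPKM or more in either stage) per bin of 0.2 in the log2 ratio of pachytene over the leptotene/zygotene label. The lower tail holds 16 genes in the bin from -2.8 to -2.6 and 1 gene below it, while the main peak lies between 0.2 and 0.6.

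With no restriction to lists, the 8 lowest named genes at 20 FPKM or more were 4 globin genes, Yjefn3, Arl9, Prm2 and Nptxr. Hbb-bs, an adult beta globin, was at 1.21 and 3.56 FPKM at pachytene and at 13.5 and 116 FPKM under the leptotene/zygotene label, so condition 2 of that table held most of it. Hbb-bt and the alpha globins Hba-a1 and Hba-a2, which are near-identical copies that the authors' counting could split, followed the same pattern. Yjefn3 was at 2.82 and 4.31 against 48.1 and 34.3 FPKM, and Nptxr, a pentraxin receptor, at 2.19 and 4.47 against 17.4 and 27.9 FPKM. The 8 highest were Ube2v1, Sap30, Stambp, Chst1, Piwil1, Eif2b1, Tdrd5 and Dut. Ube2v1, a partner of ubiquitin-conjugating enzymes, was at 26.8 and 31.2 against 2.53 and 2.20 FPKM (12.3-fold higher at pachytene). Sap30, of the SIN3 histone deacetylase complex, was at 18.9 and 25.5 against 2.44 and 2.58 FPKM, and the deubiquitinase Stambp at 57.1 and 60.5 against 9.37 and 5.42 FPKM. Chst1, a sulfotransferase, was at 22.7 and 22.1 against 3.03 and 3.05 FPKM, Eif2b1, a subunit of a translation initiation factor, at 40.5 and 55.7 against 7.38 and 6.99 FPKM and Dut, which removes dUTP, at 52.7 and 75.5 against 11.9 and 8.42 FPKM.

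Enzymes of energy supply went both ways. Of 15 enzymes and transporters of testis energy supply, 4 were called higher and 5 lower (26.7 and 33.3%, against 17.0 and 10.9% of all measured genes). The lower ones were glycolytic enzymes. Gapdhs was at 387 and 395 FPKM at pachytene and at 1802 and 2109 FPKM under the leptotene/zygotene label, Hk1, the hexokinase of which sperm have their own form, at 924 and 905 against 2958 and 3201 FPKM and Pgk2, the autosomal phosphoglycerate kinase, at 496 and 519 against 1212 and 1380.3 FPKM. The higher ones serve sugar import and mitochondria. Slc2a3, a glucose transporter, was at 1688 and 1806 against 456 and 408 FPKM, and Cyct, testis cytochrome c, at 161 and 248 against 74.7 and 57.4 FPKM. Slc25a31, the testis ADP/ATP carrier, was at 52.0 and 62.4 against 24.6 and 21.8 FPKM, and Cox8c, a subunit of cytochrome oxidase, at 1075 and 1086 against 471 and 453 FPKM. Ldhc, the testis lactate dehydrogenase, was the most abundant of the list and close, at 5421 and 5408 against 4507 and 4116 FPKM. Of 14 glycolytic enzymes of somatic cells, 3 were lower and 1 was higher (21.4 and 7.14%). Gpi1 was at 42.6 and 53.2 against 199 and 249 FPKM, Pkm at 29.7 and 28.5 against 117 and 126 FPKM and Aldoa at 121 and 111 against 237 and 235 FPKM. Hk2 was the higher one at 3.70 and 7.84 against 2.14 and 1.19 FPKM.

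The median log2 ratio of X-linked genes lay below that of every autosome. Of 930 measured X-linked genes 62 were called higher (6.67%) and 174 lower (18.7%), against 17.6% and 10.4% of 16439 autosomal genes. The median log2 ratio was -0.43 on the X chromosome and 0.31 on the autosomes, a difference of -0.74, and single autosomes ran from 0.16 to 0.39. The share of lower genes was between 8.17 and 13.3% on the autosomes. The difference was -0.72 to -0.73 under the 3 other scalings, which move both medians together. All 15 measured Y-linked genes lay below 0 (median -0.70), and 1 was called lower.

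**Figure D4:**
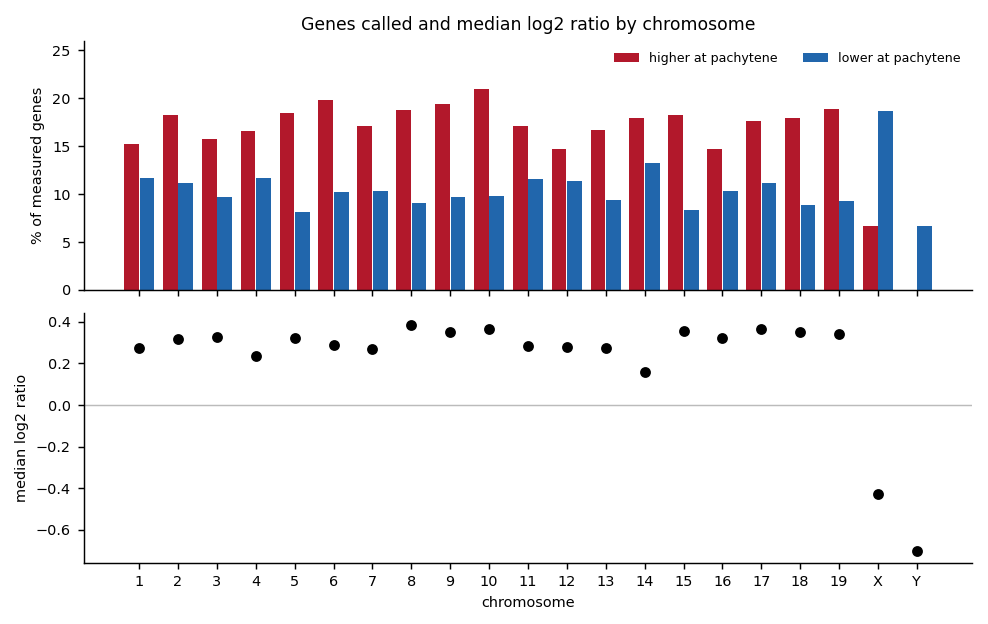
Percent of measured genes called higher (red) or lower (blue) at pachytene on each chromosome, above the median log2 ratio of the same genes. The X chromosome has the fewest higher calls of the chromosomes with more than 15 measured genes (6.67%) and the most lower calls (18.7%), and only the X and Y medians lie below 0.

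Within single libraries, which need no scaling between tables, the median FPKM of X-linked genes was 0.368 and 0.356 times that of autosomal genes at pachytene and 0.564 and 0.572 times under the leptotene/zygotene label. In whole testes of C57BL/6 mice aged 3 days, 1 library from Ago4+/+ and 1 from Ago4-/- mice, whose germ cells are all before meiosis, it was 0.431 and 0.366. All these ratios cover genes at 1 FPKM or more in any of the 4 adult libraries. Genes present only at day 3 are left out, so the day 3 ratio is not that of all genes expressed there. The same day 3 testes were the reference for a list of X-linked housekeeping genes, and there the picture differed. The 29 measured genes of that list had a median of 3.21 and 4.74 FPKM at pachytene and of 4.76 and 5.55 FPKM under the leptotene/zygotene label, against 59.2 and 59.2 FPKM at day 3. In 26 of the 29 all 4 adult values lay below both day 3 values, in 13 by more than 10 times, while Cul4b, Usp9x and Cstf2 overlapped. No such count was made over all measured or autosomal genes, so whether these shares are unusual was not tested. The summed FPKM of the list was 6.71 and 5.96% of the day 3 mean at pachytene and 9.94 and 8.01% under the leptotene/zygotene label. Lists not chosen by chromosome differed. Cytosolic ribosomal protein genes were at 13.6 and 16.9%, and at 11.7 and 12.8%. Proteasome subunits were at 90.1 and 99.5%, and at 86.9 and 89.0%. A drop from day 3 is not particular to X-linked genes. Cul4b, of a ubiquitin ligase, was at 34.1 and 25.9 against 50.7 and 37.7 FPKM, with 45.5 and 38.5 FPKM at day 3. Between the adult stages 2 of the 29 were called lower and none higher (6.90 and 0%, median -0.34, just above 0 with equal FPKM sums). G6pdx, which makes NADPH, was at 0.567 and 0.836 against 1.74 and 2.70 FPKM, with 33.7 and 32.2 FPKM at day 3. Cetn2, a centrin, was at 3.71 and 4.74 against 8.38 and 9.28 FPKM, with 36.7 and 50.1 FPKM at day 3. When scaled by the median of ratios, 7 of the 29 were lower, and without pachytene condition 2, 4 were; without pachytene condition 1, 2 were lower and 3 higher.

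Akap4 (chromosome X, 6644645 to 6655735 in the table) was among the named X-linked genes with the lowest ratios. Others were Arhgef6, a guanine nucleotide exchange factor, at 10.2 and 10.1 FPKM at pachytene and 58.5 and 63.6 FPKM under the leptotene/zygotene label, Satl1 at 17.3 and 13.2 against 59.2 and 66.5 FPKM and Wdr13 at 8.71 and 5.35 against 29.0 and 27.0 FPKM. Of named X-linked genes at 5 FPKM or more, 4 were called higher and 43 lower. How many X-linked or autosomal genes met these terms was not counted, so the counts have no share beside them. Over all measured genes, 6.67% of X-linked genes were higher and 18.7% lower, against 17.6% and 10.4% of autosomal genes. The 4 higher genes were Tmem29 (4.67 and 7.45 against 1.65 and 2.19 FPKM), Nxf3 (9.02 and 6.93 against 2.92 and 2.18 FPKM), Vcp-rs (132 and 141 against 69.2 and 63.7 FPKM) and Bex4 (5.47 and 5.22 against 2.03 and 3.17 FPKM). Among 29 measured X-linked germ cell genes, 27 lay below 0 and 5 were called lower (17.2%, near the 18.7% of all measured X-linked genes, median -0.57). It was 8 without pachytene condition 1 and 11 under scaling by the median of ratios. The 5 of the main count were Akap4, Tex13a at 27.7 and 27.6 against 94.3 and 108 FPKM, Cypt1 at 132 and 89.6 against 330.3 and 245 FPKM, Cypt3 at 72.2 and 52.1 against 203 and 135 FPKM and Tex16 at 4.36 and 2.52 against 10.8 and 7.18 FPKM. Of 8 measured Y-linked genes on a list all lay below 0 and none was called, but 3 were lower without pachytene condition 1. Eif2s3y, a translation factor subunit, was the most abundant at 32.3 and 26.5 against 48.5 and 40.5 FPKM.

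Many X-linked genes of general function have autosomal copies made by retroposition that are expressed in male germ cells. In all 19 pairs examined, both the copy and its X-linked parent were measured. The median level of the parents was 2.27 and 2.84 FPKM at pachytene, 2.79 and 2.80 FPKM under the leptotene/zygotene label and 49.9 and 50.1 FPKM in day 3 testes. The copies had medians of 90.7 and 83.3 FPKM, 76.1 and 56.4 FPKM, and 2.11 and 1.304 FPKM. The parent was above its copy in both day 3 libraries in 19 of 19 pairs. The copy was above its parent in all 4 adult libraries in 17 of 19 pairs. The exceptions were Cstf2t with its parent Cstf2, and Zfa-ps with its parent Zfx.

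Between the 2 adult stages the pairs moved less. The copies had a median log2 ratio of 0.39, with 3 called higher and 2 lower (15.8 and 10.5%, near the 17.0 and 10.9% of all measured genes), and the parents a median of -0.37, with none higher and 3 lower (15.8%). Pgk2 was lower at pachytene, as given above, while Pgk1 was at 1.52 and 1.57 against 2.09 and 1.62 FPKM, with 33.7 and 45.8 FPKM at day 3. Ubl4b was also lower, at 59.0 and 70.8 against 299 and 359 FPKM. Cstf2t, a polyadenylation factor, was higher at 22.9 and 27.9 against 7.64 and 8.197 FPKM, while Cstf2 stayed high for a parent at 47.3 and 30.8 against 76.5 and 39.6 FPKM. Naa11, an acetyltransferase subunit, was higher at 15.2 and 16.9 against 5.18 and 4.27 FPKM, with Naa10 at 1.22 and 1.33 against 2.21 and 0.829 FPKM. The third higher copy was Zfa-ps at 6.84 and 5.26 against 1.99 and 1.67 FPKM, with Zfx at 2.82 and 2.52 against 4.60 and 4.14 FPKM. Lower parents were G6pdx and Cetn2, given above, and Gk, a glycerol kinase, at 1.36 and 0.303 against 4.07 and 4.02 FPKM, with its copy Gk2 at 601 and 616 against 522 and 457 FPKM and at 0.170 and 0.0598 FPKM at day 3. Cetn1, the copy of Cetn2, was at 513 and 604 against 459 and 449.8 FPKM, with 0.401 and 0.502 FPKM at day 3, and G6pd2, the copy of G6pdx, at 28.4 and 15.3 against 42.6 and 38.6 FPKM.

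Against day 3, 15 of the 19 copies were higher in all 4 adult libraries, and 17 of the 19 parents were lower in all 4. The same was not counted over all measured genes, so whether these shares are unusual was not tested. Rpl36al was the 1 copy below both day 3 values in all 4, and Cstf2t, Zfa-ps and Rps4l overlapped with their day 3 values. The 4 ribosomal pairs went both ways in their copies. Rpl10, of the large ribosomal subunit, was at 231 and 339 FPKM in day 3 testes and at 2.39 and 3.94 FPKM at pachytene and 5.54 and 5.65 FPKM under the leptotene/zygotene label, while Rpl10l was at 7.67 and 8.48 FPKM at day 3 and at 213 and 177 against 162 and 72.4 FPKM in the adult cells. Rpl39 was at 207 and 371 FPKM at day 3 and at 1.41 and 3.81 against 2.79 and 1.83 FPKM in the adult cells, and Rpl39l at 25.6 and 24.6 FPKM at day 3 and at 522 and 693 against 520.5 and 525 FPKM in the adult cells. Rps4x was at 772 and 1245 FPKM at day 3 and at 2.29 and 6.27 against 3.45 and 7.67 FPKM in the adult cells, and Rps4l at 71.5 and 106 FPKM at day 3 and at 90.7 and 83.3 against 76.1 and 56.4 FPKM. Rpl36al was abundant already at day 3, at 168 and 259.6 FPKM, and was at 143 and 159 against 108 and 91.6 FPKM in the adult cells, with Rpl36a at 2.32 and 2.84 against 2.24 and 0.447 FPKM. Copies of energy and nucleotide enzymes were low at day 3. Pdha2, of pyruvate dehydrogenase, was at 0.753 and 0.519 FPKM at day 3 and at 99.8 and 104 against 60.6 and 49.9 FPKM in the adult cells, with Pdha1 at 55.3 and 41.8 FPKM at day 3 and at 0.658 and 3.10 against 1.47 and 0.966 FPKM in the adult cells. Prps1l1, which makes a precursor of nucleotides, was at 0.0197 and 0.0463 FPKM at day 3 and at 173 and 141 against 125 and 96.1 FPKM in the adult cells, with Prps1 at 5.38 and 5.18 against 5.67 and 3.91 FPKM, and Tktl2 at 44.2 and 41.0 against 25.2 and 22.3 FPKM, with Tktl1 at 1.62 and 3.50 against 2.57 and 4.17 FPKM. Fam50b, Mcts2, Rbmxl2 and Utp14b were likewise above Fam50a, Mcts1, Rbmx and Utp14a in all 4 libraries, with Utp14b at 16.5 and 12.5 against 14.6 and 12.5 FPKM and Utp14a at 2.53 and 2.30 against 2.69 and 2.31 FPKM. Copies and parents are similar in sequence, and the sources used here do not say how the authors treated reads that match both.

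**Figure D5:**
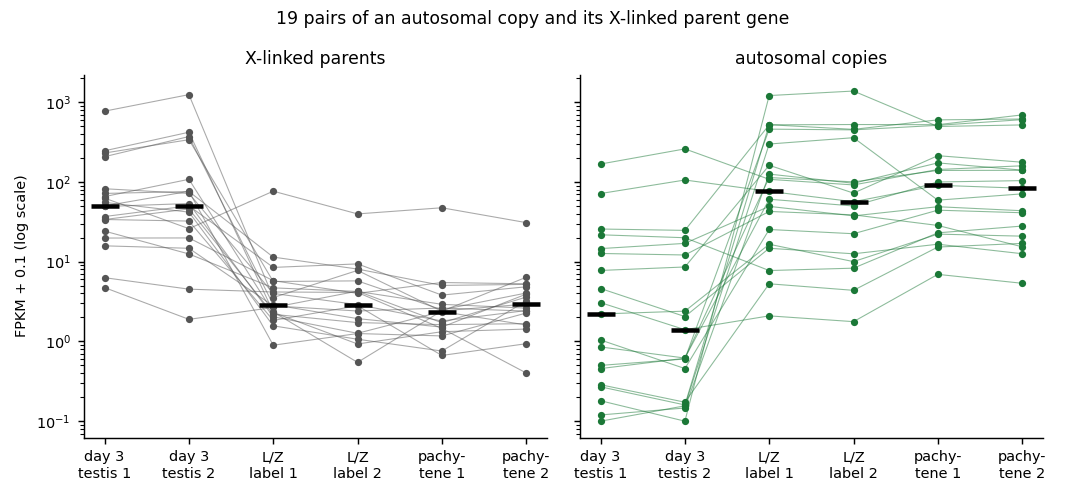
FPKM plus 0.1 on a log scale of 19 X-linked parent genes (left) and their autosomal copies (right) in the 2 day 3 testis, 2 leptotene/zygotene-labelled (L/Z) and 2 pachytene libraries; thin lines join the values of 1 gene and black bars are medians. The parents drop from medians of 49.9 and 50.1 FPKM at day 3 to between 2.27 and 2.84 FPKM in the 4 adult libraries, while the copies are at 56.4 to 90.7 FPKM there.

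Markers of other testis cells moved in both directions beside these results, and their part in them was not tested. In bulk RNA, fewer cells of a type and less RNA per cell cannot be told apart. All of the somatic lists except that of the accessory glands were well below day 3 testes. The summed FPKM of Sertoli cell markers was 3.24 and 3.98% of the day 3 mean at pachytene and 2.27 and 2.07% under the leptotene/zygotene label, with the defining genes Amh and Fshr under the filter. Of 17 measured Sertoli cell genes 6 were called higher (35.3%, against 17.0% of all measured genes), but 10 without pachytene condition 1, 4 without pachytene condition 2 and 2 under scaling by the median of ratios. Leydig cell markers were at 4.69 and 3.92%, and at 3.62 and 2.84%, with 6 of 8 called higher (75%). It was 4 without pachytene condition 1 and 3 under scaling by the median of ratios. Among the 6 was the hormone Insl3 at 29.5 and 26.03 against 7.70 and 6.62 FPKM. Endothelial markers were at 3.02 and 8.88%, and at 3.49 and 9.45%, with 1 of 8 genes called lower (12.5%, near the 10.9% of all measured genes). Stroma and matrix markers stayed under 1% of day 3 in all 4 libraries, with 1 of 12 genes called lower (8.33%, also near 10.9%). Peritubular myoid markers were at 6.73 and 6.93%, and at 18.99 and 20.8%, mostly through Actg2 at 125 and 98.9 against 414 and 404 FPKM. Actg2 was the 1 of 7 called lower (14.3%, against the same 10.9%). Acta2, the defining actin of these cells, was at 4.52 and 12.7 against 3.25 and 14.6 FPKM and overlapped.

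Blood and macrophage markers were the one list of other cells clearly on the side of the leptotene/zygotene label. Of 12 measured genes 10 were called lower at pachytene (83.3%, against 10.9% of all measured genes). Summed levels were 0.781 and 3.77% of day 3 at pachytene and 3.87 and 24.0% under that label. Beside the globins, C1qb, a complement gene of macrophages, was at 1.85 and 3.12 against 7.85 and 17.8 FPKM and Cd74, of antigen presentation, at 1.97 and 2.71 against 6.76 and 14.8 FPKM. The leukocyte gene Ptprc and the macrophage genes Csf1r and Cd68 were under the filter. Genes of the seminal vesicle were highest in pachytene condition 2. Svs5 was at 186 and 587 against 194 and 185 FPKM and Svs2 at 100.2 and 268 against 104 and 101 FPKM, so 3 of the 4 libraries were alike. The 1 of 8 genes of that list called higher (12.5%, against 17.0% of all measured genes), Svs1, rests on that library: without it none was called, and without condition 1 all 8 were.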

How the data were processed

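RNA of 2 pachytene and 2 leptotene/zygotene libraries was taken with Trizol and made into TruSeq RNA libraries, per the labels' protocols. No strand-keeping step is named there. The authors deposited FPKM per condition in tables of their comparisons, per the file headers; the submitters' processing notes name Cuffdiff, Cufflinks 1.1.0, Bowtie 0.12.7 and TopHat 1.3.0. Neither the build nor the treatment of reads with several matches is stated in the sources used here. Coordinates are those of the tables, counted from 1. A locus there can cover several genes. Each stage has a table of its own, normalized on its own, so no test was run between stages. From the deposited FPKM, log2 ratios of stage means (plus 0.1 FPKM) were computed with pandas 2.3.3 for genes at 1 FPKM or more in any of the 4 libraries. Levels of day 3 testes, added after the data were seen, come from another table, also normalized separately; 2 columns of a pre-meiotic table were not used. The 34 gene lists, 19 gene pairs, motifs and members were chosen with earlier results of these data known, and support nothing independently. Genes were found by the current symbol of their ID (31840 of 36806 had one) or by the table's symbol. Named genes were the 8 highest and 8 lowest called at 20 FPKM or more with OK status in both tables and without predicted, clone or RIKEN names, the same for X-linked genes (5 each way, at 5 FPKM), up to 4 called members of each list farthest from 0 in each direction, all pairs and Ago4. A few genes that this rule names are not reported here. Other members named, such as uncalled list members and the high genes at the edge of the lower side, were chosen after their values were seen. Of the measured genes, 11315 matched a promoter by symbol, and 14276 windows were searched. The call rule was tested on simulated data. Alternatives were other pseudocounts, filters, scalings and fold thresholds, status OK only, and each library left out.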

Additional observations from a re-analysis of the deposited data

How the results depend on the processing

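The main counts were 2955 genes higher and 1889 lower. The tables number their conditions, but no source used here says that a number ties a pachytene library to a leptotene/zygotene library. With the condition number as a replicate block (chosen after seeing the data), 2007 genes were at least 2-fold higher within both conditions, 1984 of them among those called higher, and 1403 were lower, 1369 of them among those called lower. The log2 differences of condition 2 from condition 1 had a correlation of 0.31 (Pearson, over 13121 genes, which are not replicates) between the stages. Scaling changed them most: 1566 and 2895 by the median of ratios, 1768 and 2691 by the upper quartile, and 5296 and 1253 with equal FPKM sums. The shift of all genes by construction accounts for this. The first 2 scalings move every ratio down, so that all 1889 lower genes stayed lower under them was fixed in advance and tests nothing. With equal FPKM sums, which move ratios up, 1253 of the 1889 stayed lower. A filter at 5 FPKM, which tests fewer genes, left 1258 lower genes, and leaving out genes with predicted, clone or RIKEN names (an alternative chosen after seeing the data) 1046. At 4-fold there were 439 higher and 500 lower genes, and without a fold threshold 8026 and 3998. Leaving out 1 library gave 2703 to 3557 higher and 1783 to 2709 lower genes. The X-linked difference from autosomal genes, -0.74, was -0.57 with a pseudocount of 1 FPKM, -0.45 with no filter, -0.88 with the filter at 5 FPKM and -0.83 to -0.63 with a library left out; the cause of these moves was not tested. The difference of the copies' and the parents' medians, 0.76, was 1.08 with the filter at 5 FPKM, which removes low parents, and 0.59 to 1.13 with a library left out (1.13 without pachytene condition 2). The 134 genes tracked here had all been called, at 2-fold or more without overlap. That they kept their sign in all 1583 values under the alternatives follows from this choice and tests nothing. List medians of break formation, cohesin, regulator, acrosome, tail and X-linked housekeeping genes changed sign under at least 1 scaling, and so did those of undifferentiated spermatogonia, retinoic acid, immediate early, myoid and endothelial genes. With a library left out, crossover genes had 6 or 7 higher, silencing factors 8 to 12, testis histones 8 to 10 lower and tail genes 7 to 11 lower. Counts of stroma genes moved from 1 lower to 8 without pachytene condition 2 and to 5 without leptotene/zygotene condition 1, and of endothelial genes from 1 to 5 and 3. Depth is unknown, so differences near 1 FPKM are the least certain.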

Other observations

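Levels are given with the 2 pachytene libraries first and the 2 libraries labelled leptotene/zygotene after "against". Of 26 measured subunits of the proteasome, the protein-degrading complex, 7 were called higher and 1 lower (26.9 and 3.85%, against 17.0 and 10.9% of all measured genes; median log2 ratio 0.73, against 0.28 for all measured genes), and 4 and 1 under scaling by the median of ratios. Without pachytene condition 1, 11 were higher, and without pachytene condition 2, 5. Psma8, the subunit of the germ cell proteasome, was at 167 and 374 FPKM at pachytene and at 29.7 and 87.1 FPKM under the leptotene/zygotene label, and condition 2 was more than 2 times condition 1 in both tables. Psmd14, the deubiquitinase of the lid, was at 53.5 and 62.8 against 17.6 and 21.4 FPKM, and Psmb1 at 42.2 and 52.7 against 17.8 and 18.9 FPKM. Psma6 was the 1 lower subunit, at 422 and 455 against 1062 and 1184 FPKM, while the other alpha subunits listed lay above 0. The cytosolic ribosomal proteins had 5 of 42 genes called higher and none lower (11.9 and 0%; median 0.36), or 9 higher without pachytene condition 1 and 3 without pachytene condition 2. The gene of this list farthest from 0 was Rpl14, at 26.5 and 40.9 against 10.4 and 10.2 FPKM.

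Of 16 measured DNA methylation and Polycomb genes 4 were higher and 1 was lower (25 and 6.25%, against 17.0 and 10.9% of all measured genes, median 0.53). The Polycomb ligase Rnf2 was at 23.0 and 28.2 against 9.01 and 6.90 FPKM and its partner Pcgf6 at 55.8 and 61.6 against 19.96 and 14.8 FPKM, while Bmi1, the alternative partner, was lower at 52.3 and 53.3 against 123 and 131 FPKM. The retinoic acid pathway had 1 of 14 genes higher and 1 lower (7.14% each). The higher one was the synthesizing enzyme Aldh1a2 at 85.03 and 96.7 against 44.96 and 45.7 FPKM. The lower one was Rxrg at 0.375 and 0.429 against 1.28 and 0.805 FPKM. Immediate early and stress genes had 5 of 19 lower and none higher (26.3 and 0%, median -0.15, above 0 with equal FPKM sums). This rests on condition 1 of the pachytene table: without it none was lower and 4 were higher, and without condition 2 it was 11 lower. Nr4a1, a nuclear receptor, was alike within stages at 11.2 and 11.9 against 23.2 and 23.3 FPKM. Others differed more between the libraries of a stage than between the stages. Fos was at 8.57 and 39.6 FPKM in conditions 1 and 2 at pachytene and at 13.9 and 40.4 FPKM under the leptotene/zygotene label, and Zfp36 at 8.59 and 42.3 against 12.4 and 43.8 FPKM.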
